A study of Mus musculus with 12 samples.

Results

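The TRIM (tripartite motif) genes are a large family of mostly ubiquitin ligases, and their transcripts were measured here in mouse MC3T3-E1 cells, an established osteoblast line, after TNFa, BMP4 or both factors. Members were all genes whose symbol is Trim followed by a number and at most 1 letter, and whose mean deposited log2 expression over the 12 libraries was at least 4. Of 67 such symbols, 36 reached that level, out of 11765 genes that did. The 4 groups of 3 libraries were untreated cells, cells given TNFa at 10 ng/mL, cells given BMP4 at 10 ng/mL, and cells given both at those doses. All groups, the untreated one included, were first moved to 2.5% serum for 30 min, then received TNFa or none for 30 min, and then BMP4 or none for 3 h, per the labels' treatment protocol. The sample characteristics instead give 3 h for each factor, so how long TNFa was present remains unclear. No engineered allele is named, and the word "p65" in the titles of the libraries given TNFa without BMP4 is not explained there. Replicate 1 of every group is labelled batch 1, and replicates 2 and 3 are labelled batch 2. Nothing says that replicates came from separate cultures, and p-values then reflect the spread between these libraries alone, which may be technical. The study is a single cell line.

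A typical TRIM protein carries a RING domain that transfers ubiquitin, 1 or more B-box zinc-binding domains, a coiled coil through which it pairs, and a variable C-terminal domain that chooses its targets. Many members act in innate immunity: some bind viral capsids or antibody-coated viruses, others attach ubiquitin chains to sensors of foreign RNA and DNA or to the proteins that switch on NF-kB and interferon regulatory factors. A number of them are themselves induced by interferon. Other members sit in the nucleus as transcriptional cofactors, among them Trim33, a ligase that acts on the BMP and TGF-beta mediator Smad4.

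The libraries held 13.7 M to 15.5 M tags each, except replicate 2 of the combined treatment with 20.6 M. Osteoblast lineage genes checked the label: 6 of 8 were above the level of 4, including Runx2 at a mean log2 of 10.3 and Col1a1 at 17.3, while Alpl stood at 0.35 and Bglap at -0.03. Of 7 leukocyte markers 2 passed the level, Lyz2 at 4.71 and Cd68 at 4.49, and the defining markers Adgre1 and Cd3e were listed at 0. The summed leukocyte level ran from 5.81 to 5.93 in untreated libraries, 5.81 to 5.95 with TNFa, 5.74 to 5.94 with BMP4 and 5.78 to 5.95 with both. Of 3 endothelial markers Pecam1 passed the level, at a mean of 4.95, while Cdh5 stood at -2.21 and Kdr was listed at 0. The summed endothelial level, made up almost wholly of Pecam1, ran from 4.70 to 5.10 in untreated libraries and 4.69 to 5.07 with TNFa. It ran from 4.91 to 5.25 with BMP4 and 5.16 to 5.39 with both. The combined libraries thus lay above the untreated ones, and the part of this difference in the results for both factors was not tested. In these bulk libraries, fewer cells of a type and less RNA per cell cannot be told apart.

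Compared per kilobase of exon, the most abundant family transcripts in untreated cells were those of Trim28 at a log2 level of 9.93 ± 0.13 (SD, n = 3), Trim47 at 9.45 ± 0.13, Trim35 at 9.33 ± 0.15 and Trim59 at 9.07 ± 0.08. Trim28 is the corepressor that silences retroelements with KRAB zinc finger proteins, and it stood apart from Trim47 by more than either spread. Trim47 and Trim35 did not differ beyond their spread. At the other end were Trim34a at 3.79, Trim46 at 3.53, Trim45 at 3.41, Trim5 at 2.80 and Trim36 at 1.99. The antiviral member Trim21 ranked 28 of 36 per kilobase in untreated cells, with 5.17 ± 0.24.

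**Figure D1:**
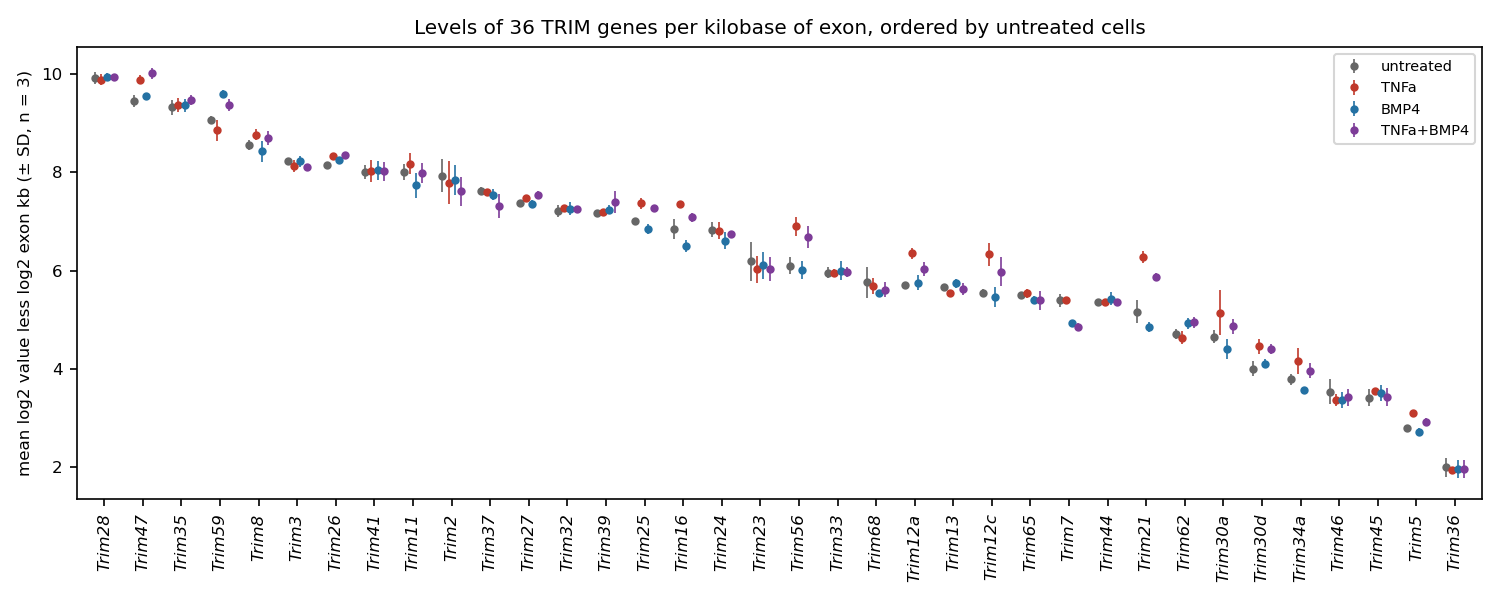
Log2 level per kilobase of exon for each of the 36 family members in the 4 groups, as group means of 3 libraries. Trim28 is highest at 9.93 in untreated cells and Trim36 is lowest at 1.99.

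All differences below are log2 fold changes of the deposited values with their standard errors, from a limma model with batch as a term, and a gene was called at an adjusted p under 0.05 over all 11765 genes. Each of the 36 members had a mean of at least 4 in all 4 groups, so none entered through 1 treatment alone. The deposited log2 scale is compressed at low levels, which bears on the size of the change in Trim5, Trim34a and other members near the threshold.

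TNFa alone raised the antiviral members of the family and left most others without a call. It changed 14 of 36 members, 13 higher and 1 lower, which is 38.9%, against 15.5% of all genes tested. By direction, 9.16% of all genes were higher and 6.32% were lower. The median difference was 0.04 over the 36 members and -0.01 over all genes. The 13 higher members included all 10 that were placed in an interferon and antiviral group by their known roles: Trim21, Trim56, Trim12c, Trim12a, Trim30a, Trim30d, Trim34a, Trim25, Trim5 and Trim26, with a group median of 0.47. The other 3 were Trim16, Trim47 and Trim8. The role groups were drawn up with earlier results of these data known. Another 6 symbols of the antiviral group were below the level and were not tested.

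Trim21, a cytosolic antibody receptor that sends antibody-coated virus to the proteasome, moved most (chr7:102557920-102565482 in mm10, minus strand). It read 6.91, 6.58 and 6.44 in the 3 untreated libraries, 7.89, 7.64 and 7.74 with TNFa, 6.38, 6.22 and 6.40 with BMP4, and 7.28, 7.33 and 7.43 with both. Every library given TNFa was above every library without it, and the combined libraries lay below the TNFa libraries. The TNFa difference was 1.11 ± 0.10 (adjusted p = 2.21e-08).

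Trim56, a ligase that takes part in antiviral signalling, read 7.80, 7.94 and 8.15 in untreated cells, 8.54, 8.91 and 8.84 with TNFa, 7.69, 7.86 and 8.06 with BMP4, and 8.31, 8.75 and 8.58 with both. Here too the libraries with and without TNFa did not overlap, and replicate 1 was the lowest of each group. The TNFa difference was 0.80 ± 0.08 (adjusted p = 1.41e-07). Trim25, the ligase best known for activating the RNA sensor RIG-I, read 9.47, 9.53 and 9.46 in untreated cells, 9.95, 9.73 and 9.86 with TNFa, 9.43, 9.26 and 9.25 with BMP4, and 9.78, 9.73 and 9.72 with both. Its difference with TNFa was smaller, 0.36 ± 0.06 (adjusted p = 0.00015), but again separated all libraries with TNFa from all without. Trim26, a ligase linked to the turnover of the interferon regulator IRF3, differed by 0.18 ± 0.05 (adjusted p = 0.0247), and its 3 TNFa libraries lay between 9.95 and 10.09 against 9.81 to 9.86 in untreated cells. That call was lost without untreated replicate 1 or 2 or TNFa replicate 1 or 2, with an adjusted p of up to 0.169, and the authors' deposited table does not make it.

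Within the antiviral group, 6 members, Trim34a, Trim5, Trim12a, Trim12c, Trim30a and Trim30d, lie side by side within 263 kb of chromosome 7 (chr7:104244457-104507849, mm10). They are mouse relatives of the retroviral capsid-binding restriction factors. All 6 were higher with TNFa, where 9.16% of all genes were higher. None of the 6 was called with BMP4 alone, where 12.2% of all genes were called. Their differences with BMP4 ran from -0.25 ± 0.10 for Trim30a to 0.10 ± 0.08 for Trim30d. Trim12c read 7.54, 7.42 and 7.38 in untreated cells, 8.48, 8.05 and 8.15 with TNFa, 7.47, 7.51 and 7.13 with BMP4, and 7.60, 7.85 and 8.18 with both. Its combined libraries spread widest, from close to the untreated level in replicate 1 to the TNFa level in replicate 3. Trim12a read 6.29, 6.32 and 6.31 in untreated cells, 7.08, 6.86 and 6.91 with TNFa, 6.40, 6.48 and 6.18 with BMP4, and 6.48, 6.65 and 6.77 with both. The TNFa libraries of Trim12a were above all others, and the combined libraries overlapped the BMP4 libraries. The TNFa differences were 0.78 ± 0.13 for Trim12c (adjusted p = 0.000135) and 0.64 ± 0.10 for Trim12a (adjusted p = 3.74e-05).

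The cluster's remaining members moved less. Trim30a, reported to restrain Toll-like receptor signalling, read 6.73, 6.51 and 6.49 in untreated cells and 7.58, 6.90 and 6.73 with TNFa, so that the lowest TNFa library met the highest untreated one at 6.73. Its difference was 0.49 ± 0.10 (adjusted p = 0.00178). Trim30d differed by 0.45 ± 0.08 (adjusted p = 0.00044), Trim34a by 0.36 ± 0.08 (adjusted p = 0.00349) and Trim5 by 0.29 ± 0.07 (adjusted p = 0.0042). The Trim34a call was lost without TNFa replicate 1 (adjusted p = 0.0531), the replicate that was highest for both Trim30a and Trim34a. In the authors' deposited table the TNFa log2 fold changes of these low-level genes are larger, 1.34 for Trim5, 0.97 for Trim34a, 0.96 for Trim30d and 0.82 for Trim30a, and 1.70 for Trim21.

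Reads of the cluster can be shared between its near-copies. The 100-base words compared here came from the longest transcript of each member. Of all such words of Trim34a, 42.0% also occur in another gene, chiefly Trim34b with 22.6% and the antisense gene Gm47248 with 19.3%. For Trim5 the share is 12.7%, mostly with Trim12c and Trim12a, and for Trim12c, Trim30d and Trim30a it is 7.64%, 5.53% and 4.79%. The level of Trim34a in particular is uncertain, since counting by strand is not stated and reads from a gene and its antisense partner cannot be told apart without it.

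The start regions of the raised genes are shown because the interferon-stimulated response element, to which interferon regulatory factors bind, can be looked for in them. In RefSeq windows from 250 bases before to 50 bases after the start (GRCm38.p6, the sequence of mm10), 28 of the 36 members had an entry. An element-like match, the letters GAAA, any 2 bases and GAAA again on either strand, was found in 8 of these 28 (28.6%) and in 3.44% of 32851 windows of all genes. Of 11 TNFa-raised members with a window 8 held a match, and of the 17 other members none did. Capitals mark the match and its overlapping repeats, and each line is a 30-base stretch, 5′ to 3′ on the gene's strand.
Trim21 (chr7:102565447-102565476, minus strand): ctgagagGAAACTGAAAGTGAAAtttggac
Trim26 (chr17:36836979-36837008, plus strand): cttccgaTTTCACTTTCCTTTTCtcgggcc
Trim34a (chr7:104244457-104244486, plus strand): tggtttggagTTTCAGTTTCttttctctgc
Trim5 (chr7:104288136-104288165, minus strand): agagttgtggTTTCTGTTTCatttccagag
Trim12a (chr7:104315466-104315495, minus strand): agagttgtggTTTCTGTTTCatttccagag
Trim12c (chr7:104353359-104353388, minus strand): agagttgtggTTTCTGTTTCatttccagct
Trim30a (chr7:104446104-104446133, minus strand): ttgtttttagTTTCTTTTTCtcagttcctg
Trim30d (chr7:104507871-104507900, minus strand): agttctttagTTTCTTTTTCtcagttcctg

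These 8 sequences are not 8 separate cases, since 6 belong to the chromosome 7 cluster. Trim5 and Trim12a carry the same 30 bases, Trim12c carries the same match, and Trim30a and Trim30d share theirs. Trim25, Trim47 and Trim56 were raised with no match in these windows, and Trim8 and Trim16 had no window. A looser NF-kB-like run, GGG, any 5 bases and CC on either strand, was common everywhere. It was in 50.8% of all windows, in 19 of 28 members, in 6 of 11 raised members and in 13 of 17 others. A match of this kind is a description of letters and not a binding site. The 250 bases before the start of Trim26 hold both kinds of run, shown in capitals on the plus strand (chr17:36836896-36837145, GRCm38.p6).
Trim26: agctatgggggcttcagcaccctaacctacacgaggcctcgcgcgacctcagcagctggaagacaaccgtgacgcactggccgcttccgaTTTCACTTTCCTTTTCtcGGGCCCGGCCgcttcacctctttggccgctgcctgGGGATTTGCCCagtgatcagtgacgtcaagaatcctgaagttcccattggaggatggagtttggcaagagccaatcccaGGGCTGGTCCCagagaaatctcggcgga

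Outside the antiviral group, TNFa raised Trim16, Trim47 and Trim8 and lowered Trim59. Trim16, which takes part in the response to protein and lysosome damage, read 8.58, 8.95 and 8.89 in untreated cells, 9.26, 9.35 and 9.35 with TNFa, 8.33, 8.51 and 8.56 with BMP4, and 8.93, 9.10 and 9.10 with both. It was highest with TNFa and lowest with BMP4, with the untreated and combined libraries between, and its TNFa difference was 0.51 ± 0.06 (adjusted p = 4.4e-06). Trim47, the second most abundant member per kilobase, read 10.55, 10.47 and 10.72 in untreated cells, 11.11, 10.93 and 11.03 with TNFa, 10.70, 10.64 and 10.74 with BMP4, and 11.25, 11.17 and 11.02 with both. Libraries with TNFa were all above those without, and the difference was 0.44 ± 0.07 (adjusted p = 4.13e-05). Trim16 shares 237 exon bases on the same strand with Fbxw10, and Trim47 shares 225 with Trim65.

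Weaker calls with TNFa were those of Trim8 and Trim59. Trim8, a ligase that promotes TNFa signalling to NF-kB, differed by 0.21 ± 0.07 (adjusted p = 0.0466). Trim59, reported to restrain NF-kB signalling, differed by -0.20 ± 0.07 (adjusted p = 0.0484). The Trim8 call was lost without untreated replicate 1 or 2 or any 1 of the TNFa libraries, with an adjusted p of up to 0.375. The Trim59 call was lost without any 1 untreated library or without TNFa replicate 1 or 3, with an adjusted p of up to 0.378. Of the 14 TNFa calls, 10 held whichever of the 6 libraries was left out. All 14 had the same direction in both batches, and 12 came from libraries that did not overlap, counts that were not made over all genes. These counts describe calls already made from the same libraries and are not separate support. The authors' deposited table, made from the same libraries, calls 13 of the 36 members, all among the 14, against 13.0% of all genes.

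**Figure D2:**
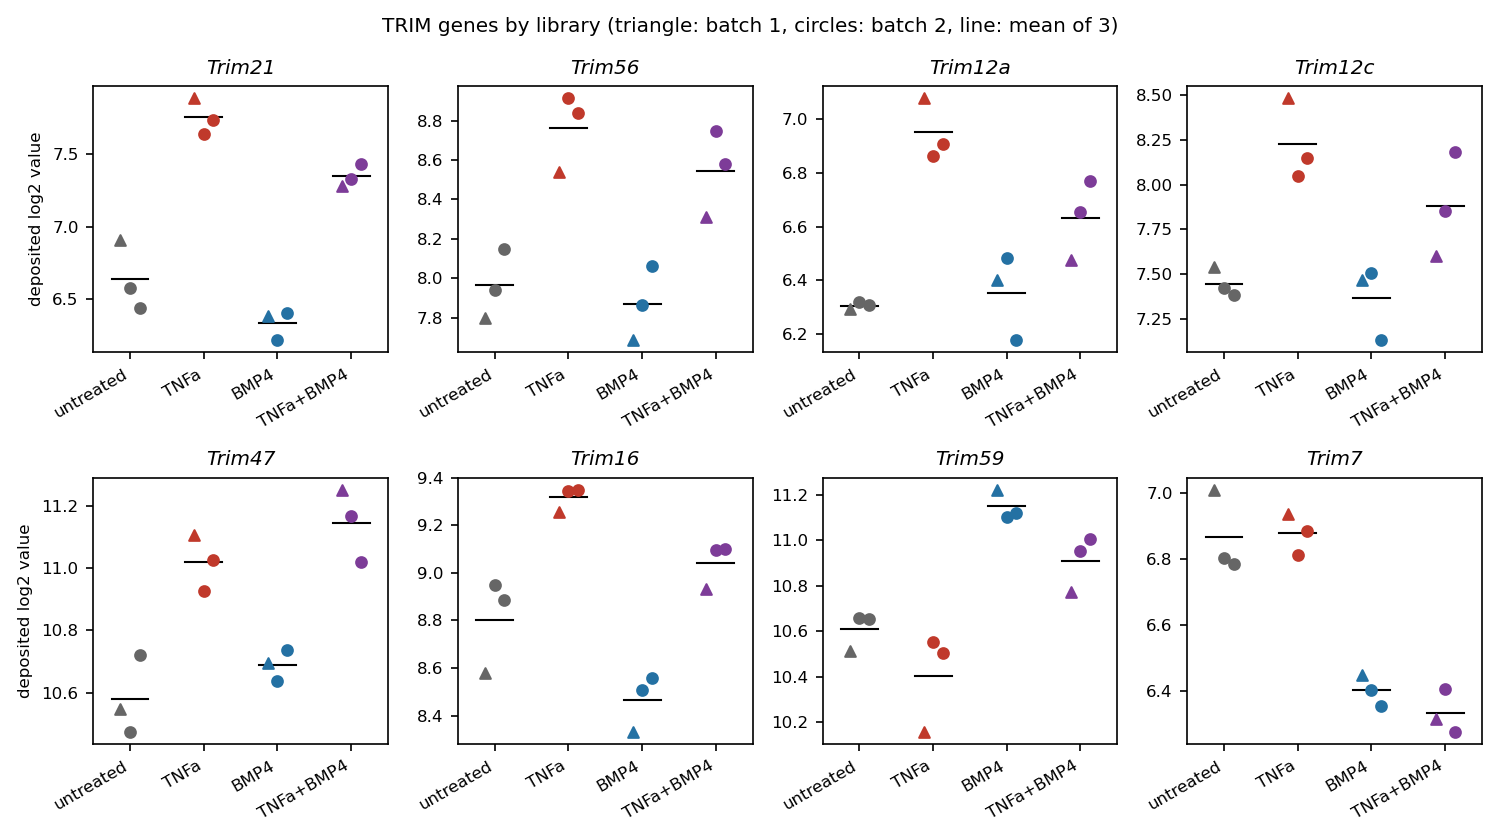
Deposited log2 expression of 8 family members in each of the 12 libraries, with bars at the group means of 3 libraries. Trim21 lies at 7.28 or higher in every library given TNFa and at 6.91 or lower in every other one, while Trim59 is highest with BMP4 alone.

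BMP4 alone touched fewer members, mostly downward. It changed 6 of 36, 1 higher and 5 lower, or 16.7%, against 12.2% of all genes (6.75% higher, 5.47% lower), so that the share called was near the background. The median difference was -0.06 over the members and -0.00 over all genes. The member that rose was Trim59. It read 10.52, 10.66 and 10.65 in untreated cells, 10.16, 10.55 and 10.51 with TNFa, 11.22, 11.10 and 11.12 with BMP4, and 10.77, 10.95 and 11.01 with both. All BMP4 libraries were above all untreated ones, and the difference was 0.54 ± 0.07 (adjusted p = 1.41e-05).

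Trim7, a ligase first described as a partner of glycogenin, fell most with BMP4. It read 7.01, 6.80 and 6.79 in untreated cells, 6.94, 6.81 and 6.88 with TNFa, 6.45, 6.40 and 6.35 with BMP4, and 6.32, 6.41 and 6.28 with both. Both BMP4-treated groups lay wholly below the others, the untreated and TNFa libraries overlapped, and the BMP4 difference was -0.46 ± 0.08 (adjusted p = 0.000389). Trim7 overlaps the antisense gene Gm16170 by 491 exon bases. Trim16, raised by TNFa, differed with BMP4 by -0.34 ± 0.06 (adjusted p = 0.00126), and Trim11, which acts in the clearance of misfolded protein, differed by -0.27 ± 0.06 (adjusted p = 0.00387).

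The last 2 BMP4 calls depended on single libraries. Trim21 differed by -0.31 ± 0.10 (adjusted p = 0.0417), a call lost without untreated replicate 1 or 2 or BMP4 replicate 1 or 2, with an adjusted p of up to 0.318. Trim24, a nuclear cofactor and ligase for p53, read 9.63, 9.38 and 9.37 in untreated cells and 9.43, 9.12 and 9.16 with BMP4, so that the groups overlapped until batch was taken into account. Its difference was -0.22 ± 0.06 (adjusted p = 0.0143), with -0.20 in batch 1 and -0.24 in batch 2, and the call was lost without untreated replicate 1 (adjusted p = 0.0601) or BMP4 replicate 2. The authors' deposited table calls neither Trim21 nor Trim24 with BMP4. It calls the other 4 and no further member, 4 of 36, against 7.3% of all genes.

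For Trim59, the sequence GGCGCC, part of the GC-rich element through which BMP-activated Smads bind several target genes, was searched in the same windows. It was in 11.9% of all windows and in 6 of 28 members, and Trim59, whose window is 76.7% G and C, held 3 copies, shown in capitals in the 250 bases before its start on the minus strand (chr3:69044743-69044992, GRCm38.p6). Of the 5 members that BMP4 lowered, Trim7, Trim21 and Trim24 held none, and Trim11 and Trim16 had no window. The other members that held the sequence, Trim25, Trim37, Trim39, Trim44 and Trim62, were not called with BMP4 alone.
Trim59: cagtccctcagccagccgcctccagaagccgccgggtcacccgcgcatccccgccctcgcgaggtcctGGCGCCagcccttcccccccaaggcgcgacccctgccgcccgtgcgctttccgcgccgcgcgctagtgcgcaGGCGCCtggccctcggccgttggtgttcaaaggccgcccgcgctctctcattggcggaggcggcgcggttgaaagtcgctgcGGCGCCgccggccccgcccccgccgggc

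With both factors most antiviral members were higher, as with TNFa, while Trim7 was lower and Trim59 higher, as with BMP4. Against untreated cells, 17 of 36 members were called, 14 higher and 3 lower, or 47.2%, against 31.2% of all genes (16.8% higher, 14.4% lower). The median difference was 0.08 over the members and 0.00 over all genes. In the antiviral group 7 of 10 were higher, with a median of 0.29. The other 3, all in the chromosome 7 cluster, were not called. They were Trim30a at 0.21 ± 0.10 (adjusted p = 0.131), Trim34a at 0.18 ± 0.08 (adjusted p = 0.109) and Trim5 at 0.12 ± 0.07 (adjusted p = 0.186). Trim21 differed by 0.71 ± 0.10 (adjusted p = 8.68e-06), Trim56 by 0.58 ± 0.08, Trim47 by 0.57 ± 0.07 (adjusted p = 9.75e-07) and Trim30d by 0.40 ± 0.08. Trim7 differed by -0.53 ± 0.08 (adjusted p = 2.27e-05) and Trim59 by 0.30 ± 0.07 (adjusted p = 0.00203). For Trim59 this was smaller than its 0.54 ± 0.07 with BMP4 alone.

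Trim12c at 0.43 ± 0.13 (adjusted p = 0.014) and Trim12a at 0.33 ± 0.10 (adjusted p = 0.0122) were called against untreated cells as well, but both calls depended on replicate 3 of the combined treatment, with adjusted p of 0.129 and 0.0792 without it. The difference of Trim12c was 0.06 in batch 1 and 0.61 in batch 2. Trim25 differed by 0.25 ± 0.06 and Trim26 by 0.21 ± 0.05. Trim16 stood between its opposite responses to the single factors, at 0.24 ± 0.06 (adjusted p = 0.00715), a call lost without untreated replicate 1 (adjusted p = 0.0717). Trim2, an NHL-domain ligase known for acting on neurofilaments, differed by -0.32 ± 0.06 (adjusted p = 0.00014). Trim37, the ligase mutated in mulibrey nanism, differed by -0.30 ± 0.06 (adjusted p = 0.00104).

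Neither Trim2 nor Trim37 was called with TNFa or BMP4 alone. Trim37 read 10.04, 10.21 and 10.10 in untreated cells, 10.05, 10.11 and 10.14 with TNFa, 9.92, 10.08 and 10.11 with BMP4, and 9.53, 9.98 and 9.92 with both. Replicate 1 of the combined treatment was the lowest library by a wide margin, and the other 2 were below every untreated one. Trim2 read 11.21, 10.62 and 10.63 in untreated cells, 11.17, 10.47 and 10.37 with TNFa, 11.08, 10.55 and 10.55 with BMP4, and 10.84, 10.31 and 10.36 with both. Within each group replicate 1 of Trim2 was higher than the other 2, and the batch gap of 0.59 was the largest of the 36 members, whose gaps ran from -0.36 to 0.59 with a median of 0.06. Both genes were also called lower with both factors than with each single factor, as given below. Each of those calls was lost without replicate 1 of the combined treatment. Neither gene passed the test of the interaction, so a departure from the summed single responses was not shown.

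The 4 calls with the highest adjusted p with both factors were those of Trim62, a ligase linked to epithelial polarity, at 0.24 ± 0.09 (adjusted p = 0.0464), Trim39 at 0.22 ± 0.07 (adjusted p = 0.0273), Trim27 at 0.17 ± 0.06 (adjusted p = 0.0315) and Trim35 at 0.15 ± 0.05 (adjusted p = 0.0256). Each was lost when single libraries were left out. Trim62 lost its call without any 1 untreated library or without replicate 1 or 3 of the combined treatment (adjusted p up to 0.179). Trim39 lost it without replicate 1 of either group (up to 0.269), Trim27 without untreated replicate 1 or 2 or combined replicate 2 (up to 0.134), and Trim35 without untreated replicate 2 or combined replicate 2 or 3 (up to 0.0887). The authors' deposited table calls 11 of the 36 members, all among the 17, against 21.2% of all genes, and none of these 4.

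**Figure D3:**
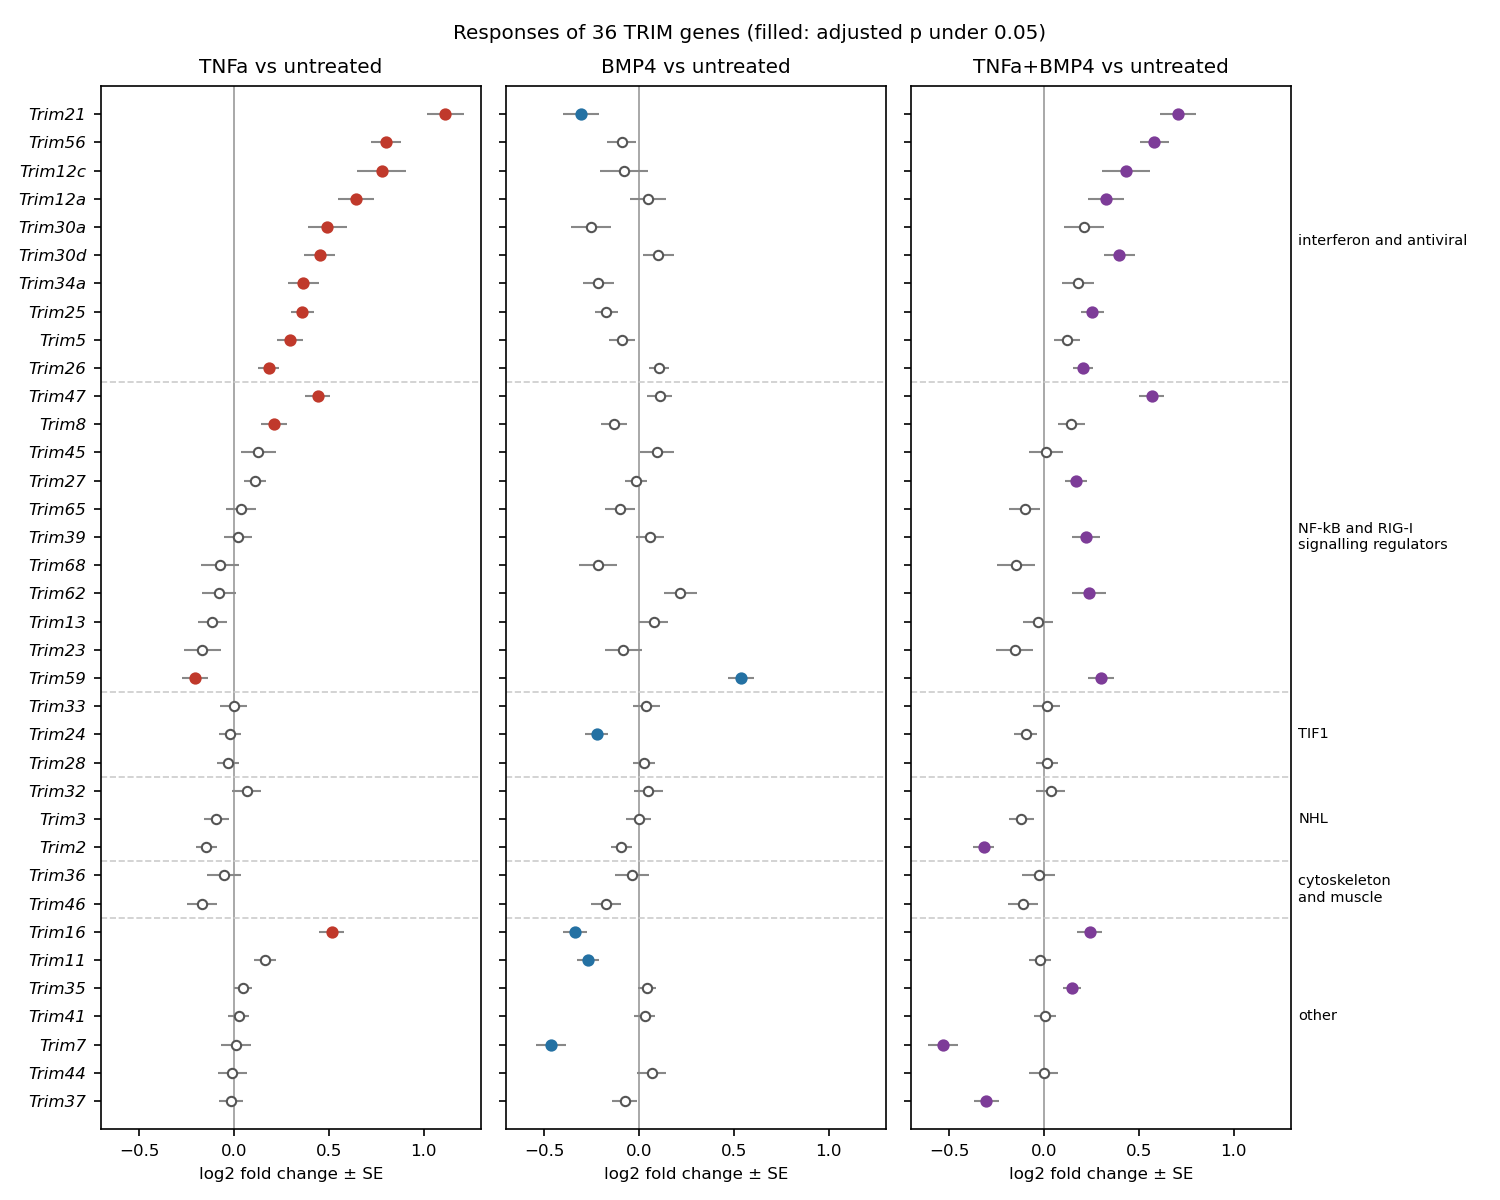
Log2 fold change against untreated cells, with standard errors, of the 36 family members after TNFa, BMP4 and both. Filled points have an adjusted p under 0.05: 14 with TNFa, 6 with BMP4 and 17 with both.

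What BMP4 did in cells that also received TNFa was read from the combined treatment against TNFa alone, a comparison that shares no library with BMP4 against untreated. It changed 9 of 36 members, 2 higher and 7 lower, or 25%, against 11.7% of all genes (5.47% higher, 6.2% lower). The median difference was -0.06 over the members and 0.00 over all genes. Of the 6 BMP4 calls, 5 recurred in the same direction, those of Trim59, Trim7, Trim16, Trim21 and Trim11. That is 83.3% of the first list and 55.6% of the second, where all genes gave 55.5% and 58.1% (798 shared calls). Trim7 differed by -0.54 ± 0.08 (adjusted p = 7.36e-05) and Trim59 by 0.50 ± 0.07 (adjusted p = 3.64e-05), and both calls held whichever of the 6 libraries was left out.

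The remaining 7 were less firm. Trim21 differed by -0.41 ± 0.10 (adjusted p = 0.00775, and 0.0863 without combined replicate 1), and Trim16 by -0.27 ± 0.06 (adjusted p = 0.00723, and 0.0758 without TNFa replicate 1). Trim37 differed by -0.29 ± 0.06 (adjusted p = 0.00489), lost without replicate 1 of either group (up to 0.0616). Trim62 at 0.32 ± 0.09, Trim12a at -0.32 ± 0.10, Trim11 at -0.19 ± 0.06 and Trim2 at -0.17 ± 0.06 were each lost in at least 4 of the 6 single-library exclusions, with adjusted p of up to 0.114, 0.257, 0.131 and 0.338. The number of members called dropped to 3 without TNFa replicate 1, and to 3 without combined replicate 1. For Trim12c, which was not called, the difference was -0.88 in batch 1 and -0.08 in batch 2. The authors' deposited table calls 5 of the 36 members, all among the 9, against 10.5% of all genes.

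TNFa in the presence of BMP4, read from the combined treatment against BMP4 alone, changed 16 of 36 members, 13 higher and 3 lower. That is 44.4%, against 16.2% of all genes (8.78% higher, 7.41% lower). In the antiviral group 8 of 10 were higher, with a median of 0.41. The median difference was 0.08 over the members and -0.01 over all genes. Of the 14 TNFa calls, 12 recurred in the same direction, 85.7% of the first list and 75% of the second, where all genes gave 68.7% and 65.7% (1252 shared calls). Trim21 differed by 1.01 ± 0.10 (adjusted p = 1.04e-07), Trim56 by 0.67 ± 0.08, Trim16 by 0.58 ± 0.06 (adjusted p = 9.92e-07), Trim47 by 0.46 ± 0.07, Trim30a by 0.46 ± 0.10, Trim25 by 0.43 ± 0.06 and Trim34a by 0.39 ± 0.08. These 7 held whichever of the 6 libraries was left out, as did Trim11 at 0.24 ± 0.06.

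The other 8 calls of that comparison were each lost without 1 or more single libraries. Trim12c at 0.51 ± 0.13 was lost without BMP4 replicate 3 or combined replicate 3 (adjusted p up to 0.0752). Trim8 at 0.28 ± 0.07 was lost without BMP4 replicate 2 (0.0612), and Trim2 at -0.22 ± 0.06 without combined replicate 1 (0.0561). Trim37 at -0.23 ± 0.06 was lost without BMP4 replicate 3 or combined replicate 1 (up to 0.207), and Trim59 at -0.24 ± 0.07 without BMP4 replicate 1 or combined replicate 1 or 2 (up to 0.185). Trim30d at 0.29 ± 0.08, Trim5 at 0.21 ± 0.07 and Trim27 at 0.18 ± 0.06 were lost in at least 4 of the 6 exclusions (up to 0.131, 0.19 and 0.151). Trim12a at 0.28 ± 0.10 and Trim26 missed the threshold, Trim12a narrowly at an adjusted p of 0.0506. The authors' deposited table calls 13 of the 36 members, all among the 16, against 12.2% of all genes.

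Whether one factor altered the response to the other was tested as an interaction, and limma called 0 of 36 members (0.017% of all genes, 2 in number). At an unadjusted p under 0.05 there were 2 members, Trim12a and Trim37, against 4.76% of all genes, and the smallest adjusted p of a member was 0.928. The standard errors of the interaction ran from 0.07 to 0.18 over the members, and departures well above their standard error went uncalled. That of Trim12a was -0.36 ± 0.13 (adjusted p = 0.928). The absence of calls therefore does not show that the effects were additive. The lower level of Trim21 in the combined libraries than with TNFa alone stood beside a lower level with BMP4 alone than in untreated cells, -0.41 and -0.31. The 3 members with a called response to each single factor were Trim21 and Trim16, higher with TNFa and lower with BMP4, and Trim59, lower with TNFa and higher with BMP4. The comparisons with each single factor share the untreated libraries. Trim16 was called with each factor whichever of the 12 libraries was left out, but not without the batch term. Trim21 lost 1 of its calls without untreated replicate 1 or 2, and so did Trim59, and Trim16 alone was left without untreated replicate 2, TNFa replicate 3 or combined replicate 2. In the authors' deposited table, Trim16 and Trim59 are called with each factor and Trim21 is not.

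**Figure D4:**
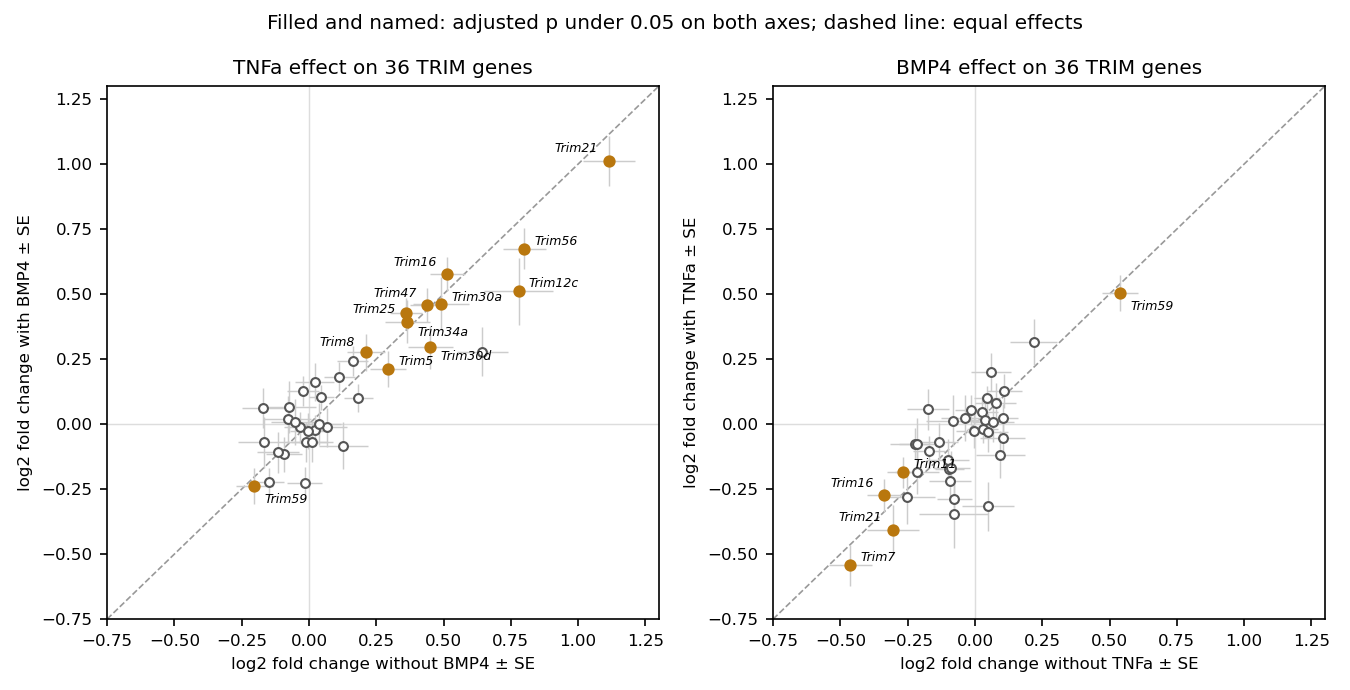
Left, log2 fold change with TNFa in cells without (x axis) and with BMP4 (y axis). Right, log2 fold change with BMP4 in cells without (x axis) and with TNFa (y axis). Bars are standard errors, the dashed line marks equal effects, and filled, named genes were called on both axes: 12 on the left and 5 on the right.

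The nuclear TIF1 subfamily, the members closest to BMP signalling by known function, gave 1 call in 3 members, that of Trim24 with BMP4, where 12.2% of all genes were called. As given above, that call was lost without untreated replicate 1 or BMP4 replicate 2, and the authors' deposited table does not make it. Trim33 read 9.18, 9.16 and 8.97 in untreated cells, 9.18, 9.02 and 9.12 with TNFa, 9.36, 9.02 and 9.06 with BMP4, and 9.22, 9.02 and 9.12 with both. The 4 groups overlapped throughout, and the differences from untreated were -0.00, 0.04 and 0.01, each ± 0.07. Trim28 gave -0.03, 0.03 and 0.01, each ± 0.06. Trim24, lower with BMP4, gave -0.02 ± 0.06 with TNFa and -0.10 ± 0.06 with both. In the NHL subfamily, Trim3 gave -0.09, -0.00 and -0.12, each ± 0.07, and Trim32, the ligase mutated in a limb-girdle muscular dystrophy, 0.07, 0.05 and 0.03, each ± 0.08. Trim62 gave -0.08 ± 0.09 with TNFa and 0.22 ± 0.09 with BMP4 (adjusted p = 0.117).

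No comparison called the other 13 members: Trim28, Trim41, Trim3, Trim33, Trim32, Trim23, Trim44, Trim65, Trim68, Trim13, Trim45, Trim46 and Trim36. Their differences over the 5 pairs of groups ran from -0.22, for Trim68 with BMP4, to 0.13, for Trim45 with TNFa. Of the 11 regulators of NF-kB and RIG-I signalling, TNFa gave 2 higher and 1 lower (27.3% called, against 15.5% of all genes), BMP4 gave 1 higher (9.09%, against 12.2%), and both factors gave 5 higher (45.5%, against 31.2%). The BMP4 count was near the background. Neither cytoskeletal member, Trim36 or Trim46, was called.

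Another 31 family symbols were below the level of 4 and were not tested, and 9 of them were listed at 0 in every library, among them Trim9, Trim54 and Trim55. Those just inside the level were Trim46 at 5.13, Trim5 at 4.20 and Trim36 at 4.14, and those just outside were Trim29 at 3.40, Trim43c at 3.31 and Trim71 at 2.97, followed by Trim15 at 2.93, Trim72 at 2.89 and Trim17 at 2.84. None of the 31 had an adjusted p under 0.05 in any pair of groups in the authors' deposited table.

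The signalling genes with which the antiviral members work were mostly higher with TNFa too. In a list of RNA and DNA sensing and interferon signalling genes, 18 of 23 tested were higher and 0 lower with TNFa, where 9.16% of all genes were higher. The list's median was 0.37 against -0.01 over all genes, and 2 more genes were below the level. Ddx58, which encodes RIG-I, the sensor that Trim25 activates, differed by 1.49 ± 0.06 with TNFa and by 1.11 ± 0.06 with both. Ifih1, an RNA sensor, and Isg15, a ubiquitin-like modifier, differed by 0.79 each with TNFa. With BMP4 alone 1 of the 23 was higher and 3 were lower, Irf1 at -0.52, Ddx58 at -0.40 and Mavs at -0.24, a count near the 12.2% of all genes called. With both factors against TNFa, 9 of 23 were lower and 0 higher (median -0.15), where 6.2% of all genes were lower, among them Ifih1 at -0.55, Ddx58 at -0.37 and Isg15 at -0.27, and the interaction called none.

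In a list of ubiquitin and NF-kB partners of the family, 4 of 22 were higher with TNFa and none lower, near the 15.5% of all genes called. These were the receptor adaptors Traf3 at 1.15 ± 0.06 and Traf2 at 0.75 ± 0.06, the cytokine signalling inhibitor Socs1 at 0.71 ± 0.08 and the IkB kinase subunit Ikbkb at 0.20 ± 0.05. The list's median was 0.05 with TNFa and 0.04 with BMP4, which alone gave 0 calls in it. In a list of 17 TIF1 partners and Smad ubiquitin regulators, TNFa alone gave 4 higher and 2 lower, where 15.5% of all genes were called. BMP4 alone gave 4 higher and 1 lower, where 12.2% of all genes were called, with a median of 0.04. The higher genes were the ligase Smurf2 at 0.46 ± 0.05, the BMP mediator Smad1 at 0.33 ± 0.09, the deubiquitinase Usp9x, which counters Trim33 on Smad4, at 0.30 ± 0.06, and the heterochromatin protein Cbx5, a partner of Trim28, at 0.22 ± 0.05, and Smad3 was lower at -0.29 ± 0.05. Smad4 itself gave -0.03 ± 0.05 with TNFa and 0.04 ± 0.05 with BMP4.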

How the data were processed

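Poly(A) RNA of 12 libraries, 3 in each of 4 groups, was sequenced as paired-end reads. Trim Galore, HISAT2, HOMER and the mm10 build are named, without versions, per the submitters' processing notes. Per the file headers, exon tags per gene were counted with HOMER and compared pairwise between groups with batch included. The deposited table holds log2 values per library, whose exact transformation is not given in the sources used here and which are compressed at low levels. It also holds the authors' own log2 fold changes and adjusted p-values. The header numbers the 2 batches in the opposite order to the labels, with the same split of libraries.

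From the deposited log2 values, genes with a mean of at least 4 (11765 of 25124 entries, 7423 of which are 0 throughout) entered a linear model (limma 3.58.1, R 4.3.3) with 4 groups plus batch, a variance trend and 7 residual degrees of freedom, and Benjamini-Hochberg adjustment over all of them. The fit was also run on simulated data with independent noise, which did not model the compression of low values. No result here rests on that run. Named genes are all members called in any comparison, a preset list of members, and per-library values for the 4 largest changes in each main comparison. Further per-library values were added after seeing them. Members, role groups and gene lists were chosen with earlier results of these data known. Start windows come from RefSeq, matched by symbol, and exon overlaps and shared words from GENCODE M21. Depth was 13.7 M to 20.6 M tags per library. The alternatives were a replicate block, batch 2 alone, no batch term, other level minimums, quantile normalization, no variance trend, each library left out and the authors' adjusted p-values. Differences between replicates 2 and 3 correlated weakly and positively between groups, at 0.02 to 0.16. Little pairing by replicate number beyond batch was therefore seen, though this check cannot exclude it.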

Additional observations from a re-analysis of the deposited data

How the results depend on the processing

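Calls among the 36 members numbered 14 for TNFa, 6 for BMP4 and 17 for both against untreated, 9 for both against TNFa, 16 for both against BMP4 and 0 for the interaction. Without the batch term they were 8, 2, 4, 1, 5 and 0. The authors' adjusted p-values gave 11 for both against untreated and 5 for both against TNFa, and batch 2 alone gave 5 for the latter. With each of the 12 libraries left out in turn, the counts ran from 11 to 15, 4 to 7, 13 to 18, 3 to 9, 11 to 17 and 0 to 0. With a replicate block, which assumes a pairing that was not established, they were 12, 5, 16, 8, 16 and 0. With no minimum level they were 12, 5, 15, 6, 14 and 0. No called difference of a member changed direction under any of these, while some uncalled ones near 0 did, such as those of Trim33 and Trim28 with BMP4 in batch 2 alone (-0.03 each). Over all genes, the calls without the batch term were 383, 114, 869, 105, 345 and 0, against 1822, 1438, 3673, 1373, 1905 and 2. BMP4 alone called 756 genes without untreated replicate 1, 951 without BMP4 replicate 1 and 859 by the authors' values. Both against TNFa called 906 with no minimum level, 752 without TNFa replicate 1, 909 without TNFa replicate 2 and 800 without combined replicate 1. The interaction ran from 0 to 15 genes, with 15 in batch 2 alone and 7 without BMP4 replicate 1. The 3 libraries a group and the compression of low values limit what can be detected for members such as Trim5, Trim34a and Trim36.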

Other observations

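Family members that lie near each other outside the antiviral cluster gave different values, a comparison that was not tested between genes. By the deposited gene positions, Trim47 and Trim65 lie 14.5 kb apart on the same strand of chromosome 11. In GENCODE their exons share 225 bases. Trim47 differed by 0.44 ± 0.07 with TNFa, while Trim65 read 7.06, 7.14 and 7.13 in untreated cells and 7.04, 7.22 and 7.18 with TNFa and was never called. Trim7 and Trim41 lie 20.1 kb apart on opposite strands of the same chromosome, and Trim7 was lower with BMP4 while Trim41, with 9.97, 9.75 and 9.69 in untreated cells against 10.06, 9.70 and 9.74 with BMP4, was not called. Trim21 and Trim68 lie 112 kb apart on chromosome 7, and Trim68, with 7.35, 6.74 and 6.96 in untreated cells and 7.13, 6.88 and 6.81 with TNFa, was not called either.

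Tripartite motif genes with other names were few at this level. Pml, the interferon-inducible organiser of nuclear bodies, gave 0.09 ± 0.06 with TNFa, and Mid1, a microtubule-associated ligase, gave 0.01 ± 0.08. Mid2, its close relative, was lower, by -0.36 ± 0.08 with TNFa, -0.27 ± 0.08 with both factors and -0.49 ± 0.08 with both against BMP4. Mefv, which encodes pyrin, had a mean log2 of -1.49 and was not tested.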
